A study of Mus musculus with 2 samples.

Results

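The level and the spatial distribution of 8 genes of vessels and blood were examined in 2 coronal mouse brain sections: Cldn5, Flt1, Ly6c1 and Itm2a, which mark endothelial cells, and Hba-a1, Hba-a2, Hbb-bs and Hbb-bt, which encode the chains of adult haemoglobin. The genes were chosen by their symbols, and all 8 were found among the 32285 genes of the matrices. The sections passed through the dorsal hippocampus and were profiled with the 10x Visium assay, in which tissue lies on a grid of barcoded spots and each captured molecule is counted once by its unique molecular identifier (UMI). Both mice were adult males, 3 to 4 months old, on a C57BL/6 background, and both carried the ArcCreERT2::eYFPflx alleles, in which the Arc promoter drives an inducible Cre recombinase and a floxed cassette reports with eYFP. The mouse labelled trained had learned active place avoidance, a task in which one sector of a rotating arena gives a foot shock, and the mouse labelled untrained had been exposed to the same arena with the shock off. Each label covers 1 section of 1 mouse, so no difference between the labels could be tested, and every interval given here is a 95% interval for counting error only. Brains were snap-frozen, and whether blood had been flushed from the vessels is not given in the sources used here.

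In all, 29515831 UMIs lay in 4152 spots under the trained label, against 59029131 UMIs in 3738 spots under the untrained label. The median spot held 5950.5 and 13766.5 UMIs, so the section labelled trained was the shallower. Spots with at least 500 UMIs, 3958 and 3624 of them, were used wherever single spots were compared. The 2 matrices shared 3448 spot barcodes, which are positions of the grid and not cells. The pictures in the study show a tear in the section called trained, whereas in the deposited matrices the gap of uncovered spots lies in the section labelled untrained. The labels may therefore have been exchanged, and levels are given below by label, with no direction drawn from training.

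Endothelial cells line every vessel of the brain, and tight junctions between them form the blood-brain barrier. Red blood cells have lost their nucleus, but young red cells (reticulocytes) still carry globin RNA, so globin RNA in tissue marks blood that stayed in the vessels, apart from lower globin expression reported in some neurons and glia. Haemoglobin itself is a tetramer of alpha and beta chains, each of which holds a haem group. Cldn5 encodes claudin-5, the main claudin of these tight junctions, and Flt1 encodes VEGF receptor 1, which binds VEGF-A with high affinity. Ly6c1 encodes a membrane-anchored Ly6 protein of endothelial and some white blood cells, and Itm2a an integral membrane protein abundant in brain endothelium. Hba-a1 and Hba-a2 encode the adult alpha chain, and Hbb-bs and Hbb-bt the adult beta chains of the haplotype carried by C57BL/6 mice. A Visium spot can hold several cells of different types or parts of them, and in such a spot fewer cells of a type and less RNA per cell cannot be told apart.

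The alpha genes lie near each other on mouse chromosome 11, with Hbq1b annotated between them, Hba-a1 (ENSMUSG00000069919) at chr11:32283511-32284465 and Hba-a2 (ENSMUSG00000069917) at chr11:32296489-32297298, both on the plus strand of mm10 and both with 3 exons. The beta genes lie on the minus strand of chromosome 7, Hbb-bs (ENSMUSG00000052305) at chr7:103826534-103828096 and Hbb-bt (ENSMUSG00000073940) at chr7:103812524-103813996, again with 3 exons each. Although the chromosomes differ, the sequences just before the start sites share the elements by which globin promoters are known. The 250 bases upstream of 3 of the 4 globin genes are printed because these genes rose and fell together across spots, as described below. They end at the RefSeq start sites, which for these genes lie inside the gene bounds given above, so that each window holds some annotated gene sequence. Their positions on GRCm38.p6 are chr11:32283422-32283671 on the plus strand, and chr7:103827929-103828178 and chr7:103813924-103814173 on the minus strand. Capitals mark 4 motifs, searched on either strand. The motif GATAA is the core bound by GATA factors such as GATA1 of red cell precursors. The motif CACCC is bound by KLF1, a regulator of beta-globin, and by its relatives. The CCAAT box is common to many promoters. The motif ATATAA is a form of the TATA box.
Hba-a1: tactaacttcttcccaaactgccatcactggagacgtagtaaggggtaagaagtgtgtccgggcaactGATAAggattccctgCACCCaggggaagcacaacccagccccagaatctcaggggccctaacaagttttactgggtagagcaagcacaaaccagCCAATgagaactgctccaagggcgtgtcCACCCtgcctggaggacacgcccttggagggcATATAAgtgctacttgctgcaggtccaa
Hbb-bs: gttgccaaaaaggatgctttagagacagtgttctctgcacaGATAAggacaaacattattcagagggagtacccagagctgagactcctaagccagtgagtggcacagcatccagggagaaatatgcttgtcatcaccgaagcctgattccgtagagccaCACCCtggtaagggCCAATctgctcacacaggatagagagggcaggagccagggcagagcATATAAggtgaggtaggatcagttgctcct
Hbb-bt: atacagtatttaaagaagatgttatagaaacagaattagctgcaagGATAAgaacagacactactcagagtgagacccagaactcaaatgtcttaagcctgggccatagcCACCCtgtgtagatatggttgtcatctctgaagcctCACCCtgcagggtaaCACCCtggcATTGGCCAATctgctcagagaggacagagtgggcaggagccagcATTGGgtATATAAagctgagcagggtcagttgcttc
The Hba-a2 window is not printed because 247 of 247 aligned bases were identical to that of Hba-a1. All 4 motifs were present upstream of each of the 4 globin genes. In the same windows of 32851 promoters, GATAA was found in 22.6%, CACCC in 52.0%, CCAAT in 33.8% and ATATAA in 9.10%, and all 4 together in 0.466%. ATATAA began 28 to 31 bases before the start site in all 4 globin genes. Between the chains, 145 of 223 aligned bases (65.0%) of the Hba-a1 and Hbb-bs windows were identical, against 182 of 242 (75.2%) for the Hbb-bs and Hbb-bt windows. For comparison, the endothelial genes' windows held GATAA in 1, CACCC in 4, CCAAT in 2 and ATATAA in 0 of 4 genes. A match is a run of letters and was not tested as a binding site. Whether these motifs bear on the pattern across spots was not tested either.

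The 4 endothelial genes lie apart from each other. Cldn5 (ENSMUSG00000041378) is a single-exon gene at chr16:18776847-18778262 on the plus strand. Flt1 (ENSMUSG00000029648) spans chr5:147561604-147726011 with 30 exons, Ly6c1 (ENSMUSG00000079018) chr15:75044018-75048830 with 4 exons and Itm2a (ENSMUSG00000031239) chrX:107397099-107403376 with 6 exons, all on the minus strand. No other annotated gene overlapped any of the 8. Near-identical copies limit 3 of the splits between genes. The Hba-a1 and Hba-a2 transcripts were identical at 537 of 538 aligned bases, the Hbb-bs and Hbb-bt transcripts at 585 of 626, and Ly6c1 at 815 of 840 with its neighbour Ly6c2. A read that fits both copies equally well cannot be assigned to either, and levels within each pair are uncertain, and the sums over chains are the firmer values.

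Across the whole sections the endothelial genes together reached 197 CPM, which are UMIs per 1000000 UMIs (interval 192 to 202), in the section labelled trained and 187 CPM in the section labelled untrained, a log2 ratio of trained over untrained of 0.07 (0.03 to 0.12). That equals the median log2 ratio of all 11460 genes with at least 400 UMIs, which was 0.07. Behind this sum the members went apart. Cldn5 stood at 26.9 CPM (795 UMIs) in the section labelled trained and at 43.4 CPM (2560 UMIs) in the other, a log2 ratio of -0.69 (-0.80 to -0.57). Itm2a stood at 78.0 CPM (2303 UMIs) and 52.9 CPM (3125 UMIs), a log2 ratio of 0.56 (0.48 to 0.64). The tight-junction gene was thus lower and the membrane-protein gene higher under the same label. Flt1 gave 22.4 and 24.3 CPM, with a log2 ratio of -0.12 (-0.26 to 0.01), and Ly6c1 gave 69.4 and 66.4 CPM, with a log2 ratio of 0.06 (-0.01 to 0.14). The intervals of Flt1 and Ly6c1 include 0. An interval clear of 0 was common at these depths, since it lay above 0 for 43.7% of all genes and below 0 for 27.5%.

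The haemoglobin genes together reached 1967 CPM (58044 UMIs) in the section labelled trained and 1281 CPM (75638 UMIs) in the section labelled untrained, a log2 ratio of 0.62 (0.60 to 0.63), or 0.22 without the highest 10% of spots by haemoglobin CPM of each section. This difference lay with the beta chains. Hbb-bs stood at 1471 CPM (43420 UMIs) and 820 CPM (48400 UMIs), a log2 ratio of 0.84 (0.82 to 0.86), which was 0.43 without those spots. Hbb-bt stood at 97.8 and 65.3 CPM, a log2 ratio of 0.58 (0.51 to 0.65), which was 0.06 (-0.07 to 0.19) without them. The alpha chain genes were close to equal in the 2 sections. Hba-a1 gave 227 and 220 CPM and Hba-a2 171 and 176 CPM, with log2 ratios of 0.05 (0.00 to 0.09) and -0.05 (-0.09 to 0.00). The sign for Hba-a1 turned with the scaling (-0.028 with median-ratio scaling), and without the highest 10% of spots the ratios were -0.42 and -0.49. The highest ratios under other settings were 0.25 and 0.09. None of the 8 genes was past 2-fold in either direction, while 2.79% of all genes tested were (1.37% higher and 1.42% lower in the section labelled trained). The middle 90% of those genes ran from -0.57 to 0.69, and Cldn5 and Hbb-bs lay outside this range at opposite ends. An exchange of labels would turn the sign of every ratio.

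The share of alpha chain UMIs among all globin UMIs followed from these levels. It was 20.2% (19.9 to 20.6) in the section labelled trained and 30.9% (30.6 to 31.2) in the section labelled untrained. The share was lower under the trained label in 16 of 17 regions, with intervals that did not overlap in 15, and cluster 19 was the exception (27.0% against 14.4%). Of 3 equal groups of spots by depth, cut within each section, the shallowest had 23.7% and the deepest 19.4% in the section labelled trained (median depths 2852.5 and 11596 UMIs), against 31.0% and 29.8% in the other (6899.5 and 24569.5 UMIs). Reads that fit both copies of a chain are not counted for either: 70.6% of windows of 91 bases near the 3′ end of Hba-a1 and 48.7% of those of Hbb-bs were shared exactly with the other copy, so the share serves to compare the sections and is not the ratio of the chains' RNA. It was higher in spots rich in blood. The lower 50% of spots by haemoglobin CPM had 16.0% and 27.2%, and the highest 1% of spots had 23.2% and 36.2%. Within each chain the split between copies was alike in the 2 sections, with Hba-a1 at 57.1% and 55.6% of alpha UMIs and Hbb-bs at 93.8% and 92.6% of beta UMIs.

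**Figure D1:**
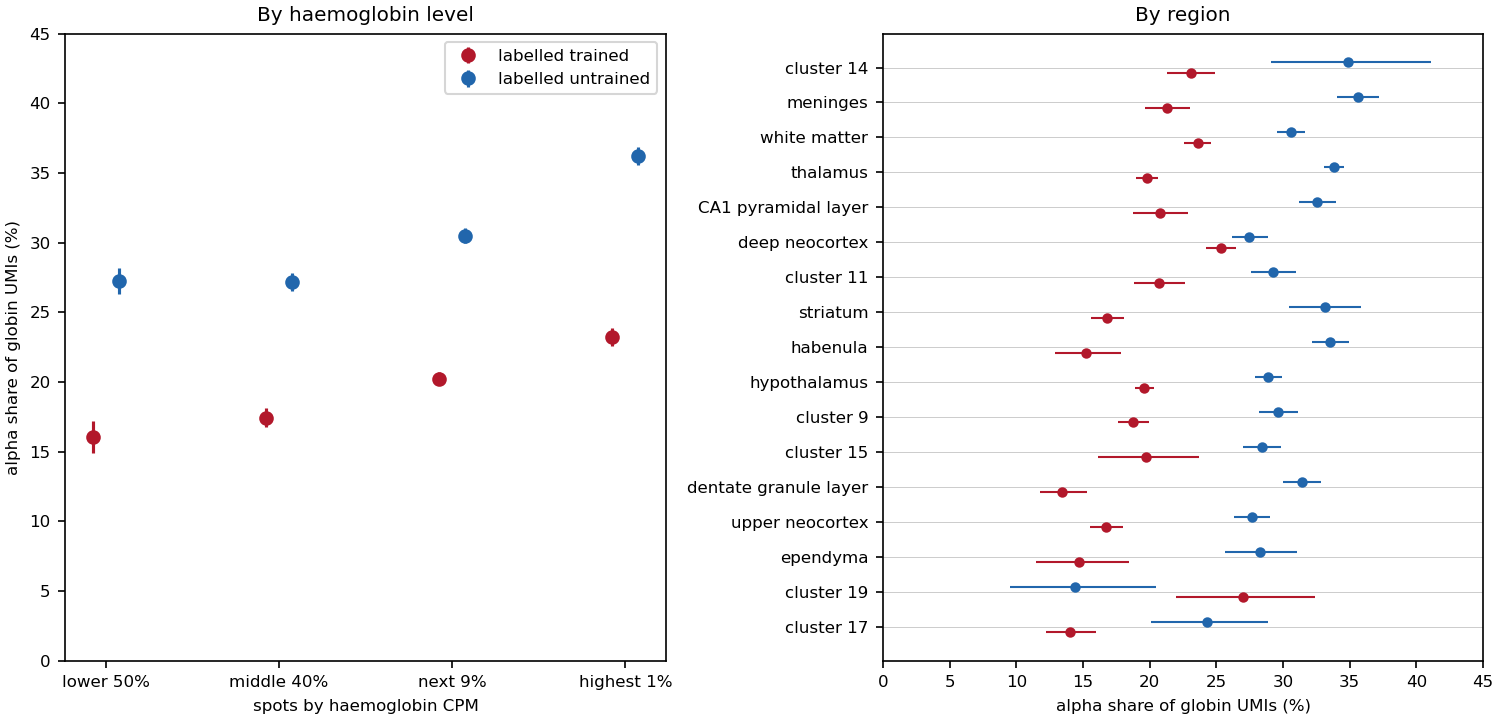
Alpha chain UMIs as a percentage of all globin UMIs, with exact binomial 95% intervals, by class of spots ranked on haemoglobin CPM and by region, in the sections labelled trained and untrained. The section labelled trained lies below the other in every class and in 16 of 17 regions.

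Regions were defined by clustering the spots of both sections on 969 genes that included none of the 8 members. Genes of the vascular and blood lists were left out too, unless they were region markers. Meninges markers of the fibroblast list, such as Dcn and Igf2, could thus take part. Clusters were named from markers of brain regions. Of 26 clusters, 17 regions (clusters of one name pooled) had at least 20 spots in both sections, and clusters that could not be named keep their numbers. Spots named meninges (132 in the section labelled trained and 122 in the other) held their defining markers: Dcn, a proteoglycan of fibroblasts, was at 204 CPM against 7.63 CPM in all other spots of the section labelled trained, and at 262 against 15.2 CPM in the other.

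All 4 endothelial genes were highest in the meninges among the 17 regions in both sections. Together they reached 517 CPM (464 to 574) there in the section labelled trained and 543 CPM (506 to 582) in the other, which is a log2 ratio over all other spots of 1.45 (1.29 to 1.61) and 1.61 (1.503 to 1.71). Among all genes, 2.10% of 8427 and 3.74% of 10477 were at least 2-fold higher in the meninges. Cldn5 gave 114 and 159 CPM in the meninges, Flt1 45.8 and 55.6 CPM, Ly6c1 171 and 199 CPM and Itm2a 186 and 129 CPM. All other named regions lay lower. White matter had 267 and 273 CPM for the 4 genes together, the thalamus 231 and 210 CPM and the hypothalamus 202 and 196 CPM. The dentate granule layer was among the lowest, with 91.4 CPM (75.5 to 110) and 129 CPM (117 to 141), and the CA1 pyramidal layer had 119 and 149 CPM. Low values were also found in cluster 11 (118 and 124 CPM) and the ependyma (119 and 124 CPM). In the section labelled untrained the unnamed cluster 19 (58 spots) came next to the meninges, and its intervals for Flt1, Ly6c1 and Itm2a overlapped with theirs. It had 383 CPM there but 104 CPM in the section labelled trained, where it was among the lowest regions. The dentate and CA1 layers are packed with neuronal cell bodies. In the neocortex the upper layers had 167 and 149 CPM and the deep layers 176 and 152 CPM, with overlapping intervals within each section.

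The regional order of the endothelial sum was alike in the sections (r of log2 CPM 0.65 over 17 regions), and that of Cldn5 more so (0.87), while Itm2a (0.31) and Flt1 (0.09) kept less of theirs. These correlations are descriptions, since the regions of a section share its library and depth. The difference in Cldn5 between the labels ran through the whole tissue: its log2 ratio was below 0 in all 17 regions, from -1.94 in cluster 17 to -0.43 in cluster 9, and the interval excluded 0 in 11. Itm2a was above 0 in 14 of 17 regions, with 9 intervals above 0 and 1 below, the latter in cluster 19 (-1.97), a cluster of shallow spots. Flt1 was above 0 in 7 regions and below in 10, and Ly6c1 likewise in 7 and 10.

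**Figure D2:**
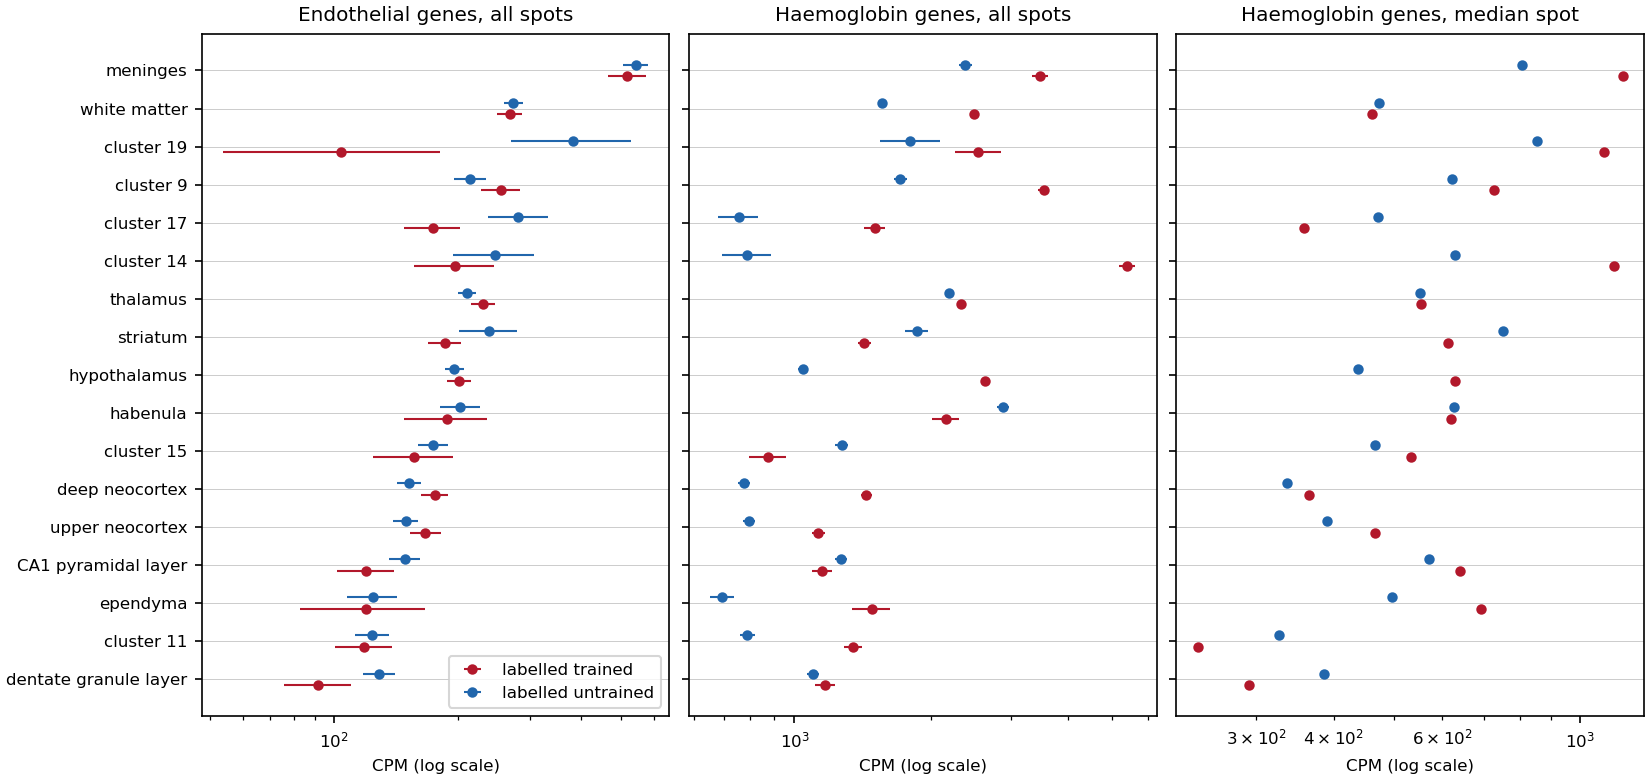
Endothelial and haemoglobin CPM of the pooled spots of each of 17 regions, with exact Poisson 95% intervals, and haemoglobin CPM of the median spot, for the sections labelled trained and untrained. The meninges lead the endothelial panel in both sections, whereas the pooled haemoglobin level is led by cluster 14 in the section labelled trained and by the habenula in the other.

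Haemoglobin RNA did not keep the same regional order in the 2 sections. The pooled level was highest in cluster 14 in the section labelled trained (5395 CPM) and 784 CPM there in the other. Cluster 14 holds shallow spots led by Ddn, a dendritic RNA, and Hopx, and Hbb-bt stood among its 10 leading genes. The habenula was highest in the section labelled untrained (2875 CPM) and reached 2151 CPM in the other. All 4 globin genes were highest in cluster 14 under the trained label and in the habenula under the untrained label. Much of these levels lay in few spots. Without the highest 10% of spots cluster 14 stood at 1031 CPM in the section labelled trained, still the highest of 17 regions, and at 712 CPM in the other. Its median spot had 1137 CPM in the section labelled trained, below only that of the meninges (1173 CPM). In the habenula 1 spot held 52.2% of the haemoglobin UMIs in the section labelled trained and 1 spot held 33.9% in the section labelled untrained. Over the 17 regions the r of log2 CPM between sections was 0.32 for the haemoglobin sum, 0.30 for Hbb-bs and for Hba-a1, 0.21 for Hbb-bt and 0.19 for Hba-a2. It rose to 0.68 without the highest 1% of spots of each section and to 0.85 without the highest 10%, and it was 0.85 for the median spot of each region.

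By the median spot, the meninges were high for haemoglobin too. The median meningeal spot had 1173 and 806 CPM, the highest of 17 regions in the section labelled trained and below only cluster 19 (854 CPM) in the other. Cluster 11, led by Cabp7 and Homer3, was lowest in both sections with 241 and 327 CPM. Without the highest 10% of spots the meninges stood at 988 CPM in the section labelled trained, below cluster 14 (1031 CPM). In the other section they stood at 710 CPM, below the striatum (765 CPM) and cluster 14 (712 CPM). Pooled, the meninges had 3473 and 2376 CPM, a log2 ratio over all other spots of 0.85 (0.79 to 0.91) and 0.92 (0.87 to 0.97), smaller than that of the endothelial genes in each section. Other pooled levels were 2489 and 1560 CPM in white matter, 2323 and 2183 CPM in the thalamus, 2623 and 1044 CPM in the hypothalamus and 1129 and 795 CPM in the upper neocortex. Without the highest 1% of spots, white matter stood at 1414 and 1110 CPM, the thalamus at 1677 and 987 CPM and the hypothalamus at 1568 and 931 CPM. The upper neocortex was unchanged. Over all spots the haemoglobin sum was higher in the section labelled trained in 13 of 17 regions and lower in 4, and the interval of the ratio excluded 0 in all 17. Without the highest 10% of spots it was higher in 12 of 17.

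**Figure D3:**
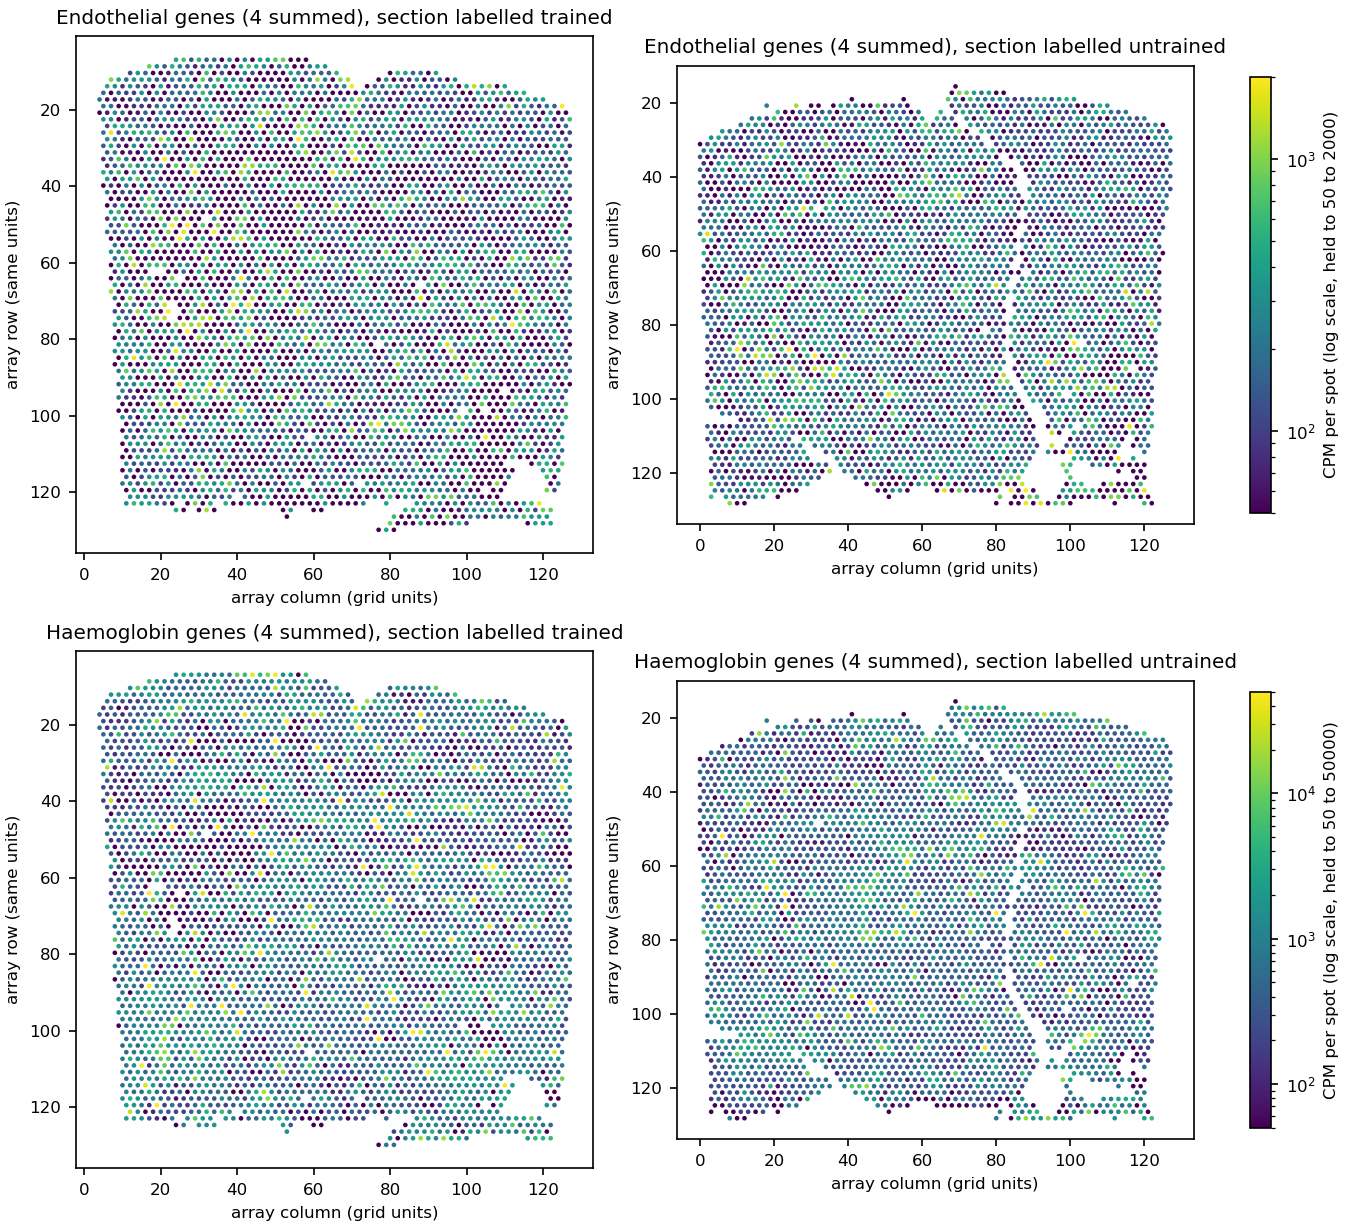
Endothelial and haemoglobin CPM of each spot at its array column and row in the sections labelled trained and untrained, on log colour scales whose end colours also take the values beyond them. Endothelial RNA is spread over the tissue, and haemoglobin RNA stands out in scattered single spots and short runs of spots.

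Blood RNA was concentrated in few spots and endothelial RNA was not. Ranked on haemoglobin UMIs, the highest 1% of spots (39 and 36 spots) held 34.1% and 29.4% of all haemoglobin UMIs. The highest 10% held 74.98% and 67.1%. For the endothelial genes the same shares, ranked on endothelial UMIs, were 7.07% and 5.66%, and 38.3% and 31.4%. Ranked on haemoglobin CPM instead, the highest 1% of spots held 16385 of 57998 and 21234 of 75601 haemoglobin UMIs. The richest spot held 1189 haemoglobin UMIs in the section labelled trained and 1494 in the other, against at most 27 and 30 endothelial UMIs. In CPM the haemoglobin genes ran from 0 through a median spot at 544 to 246323 in the section labelled trained, and from 0 through 464 to 240964 in the other. The regions of the highest 1% of spots by haemoglobin CPM (also 39 and 36 spots) are given beside each region's share of all spots. In the section labelled trained the hypothalamus held 23.1% of the 39 spots and 16.1% of all spots, white matter 20.5% and 15.9%, the thalamus 12.8% and 16.5%, and cluster 14 held 12.8% and 4.60%. In the section labelled untrained the thalamus held 30.6% of the 36 spots and 13.4% of all spots, white matter 19.4% and 15.6%, the habenula 11.1% and 2.37%, and the hypothalamus 5.56% and 12.6%. The meninges held 1 such spot in each section. Counts this small leave most of these shares imprecise.

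After each spot was thinned to 1000 UMIs, a haemoglobin UMI was found in 48.5% (46.9 to 50.05) of spots labelled trained and 44.2% (42.6 to 45.8) of spots labelled untrained, and an endothelial UMI in 18.3% and 18.5%. Of the single genes, Hbb-bs was found in 42.8% and 34.7% of thinned spots, Hba-a1 in 10.7% and 12.6%, Cldn5 in 3.09% and 5.06% and Itm2a in 7.97% and 5.76%. The lowest regional share for haemoglobin was that of cluster 11 in each section (28.7% and 30%). No region of the brain is without vessels, so no region gives a level of free RNA, and the part of RNA that spread between spots was not tested.

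**Figure D4:**
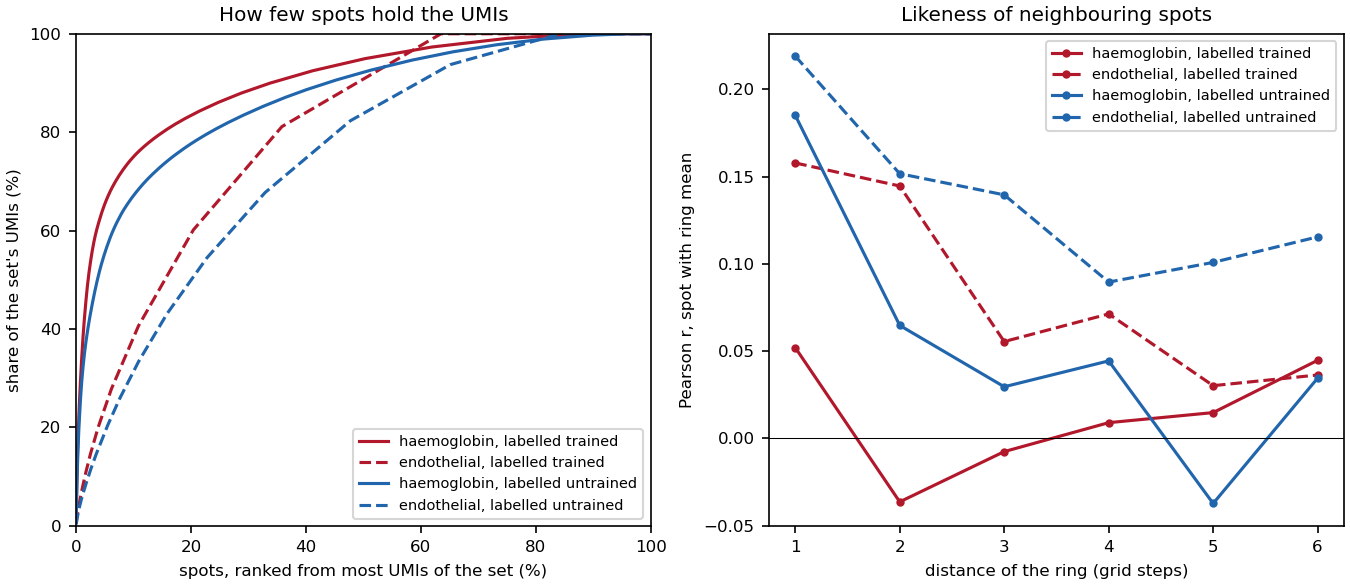
Left, cumulative percentage of UMIs against the percentage of spots, ranked from the most UMIs of the set down, for the endothelial and the haemoglobin genes. Right, correlation of a spot's residual with the mean residual of the ring of spots 1 to 6 grid steps away. The haemoglobin curve rises faster than the endothelial curve in both sections, and endothelial values stay above 0 at all 6 distances.

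Neighbouring spots shared endothelial levels over several grid steps. The correlation of a spot with the mean of its adjoining ring, on residuals that set each count against the total of its spot, was 0.158 in the section labelled trained and 0.219 in the other, and at 6 steps it was 0.036 and 0.116. For haemoglobin it was 0.052 and 0.185 at 1 step and -0.036 and 0.065 at 2 steps. The spatial score deposited by the authors, Moran's I, was 0.134 and 0.164 for Hbb-bs, and lower for the other members: 0.0255 to 0.0358 and 0.0692 to 0.101 for the other globin genes, and 0.0099 to 0.0403 and 0.0155 to 0.0448 for the endothelial genes, so that the 2 sets overlapped in the section labelled trained. By this score Hbb-bs stood above 94.9% and 94.0% of the genes listed, also in the section labelled trained, where the ring correlation of the haemoglobin sum was low.

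Across spots, blood RNA and endothelial RNA were weakly related. The r between the haemoglobin and the endothelial sums was 0.094 over 3958 spots labelled trained and 0.104 over 3624 spots labelled untrained, a weak value in sparse counts. Both sums still followed depth: with the log10 UMIs of a spot the endothelial sum had an r of -0.14 and -0.19 and haemoglobin one of -0.091 and -0.076. In size, the endothelial values were larger than the r between the sums, and the haemoglobin values smaller. The part of depth in that r was not tested. The 4 globin genes moved as a block: their pairs correlated at 0.82 to 0.96 and at 0.84 to 0.97, also between the alpha genes on chromosome 11 and the beta genes on chromosome 7. Pairs of endothelial genes correlated at 0.10 to 0.20 and at 0.11 to 0.30, with Cldn5 and Ly6c1 the highest in the section labelled untrained. Pairs of 1 globin and 1 endothelial gene lay between 0.02 and 0.075, and between 0.014 and 0.085. After thinning to 1000 UMIs per spot, Spearman's rho was lower throughout. It was 0.27 to 0.43 and 0.21 to 0.31 for the globin pairs, 0.0075 to 0.056 and 0.0089 to 0.037 for the endothelial pairs, and -0.0024 to 0.062 and -0.0084 to 0.047 for the mixed pairs. On either measure the globin pairs stood apart from all others, whereas endothelial pairs stood above mixed pairs only on the residuals. Sparse counts limit the r that a pair can reach, and how far the low counts of the endothelial genes did so was not tested.

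**Figure D5:**
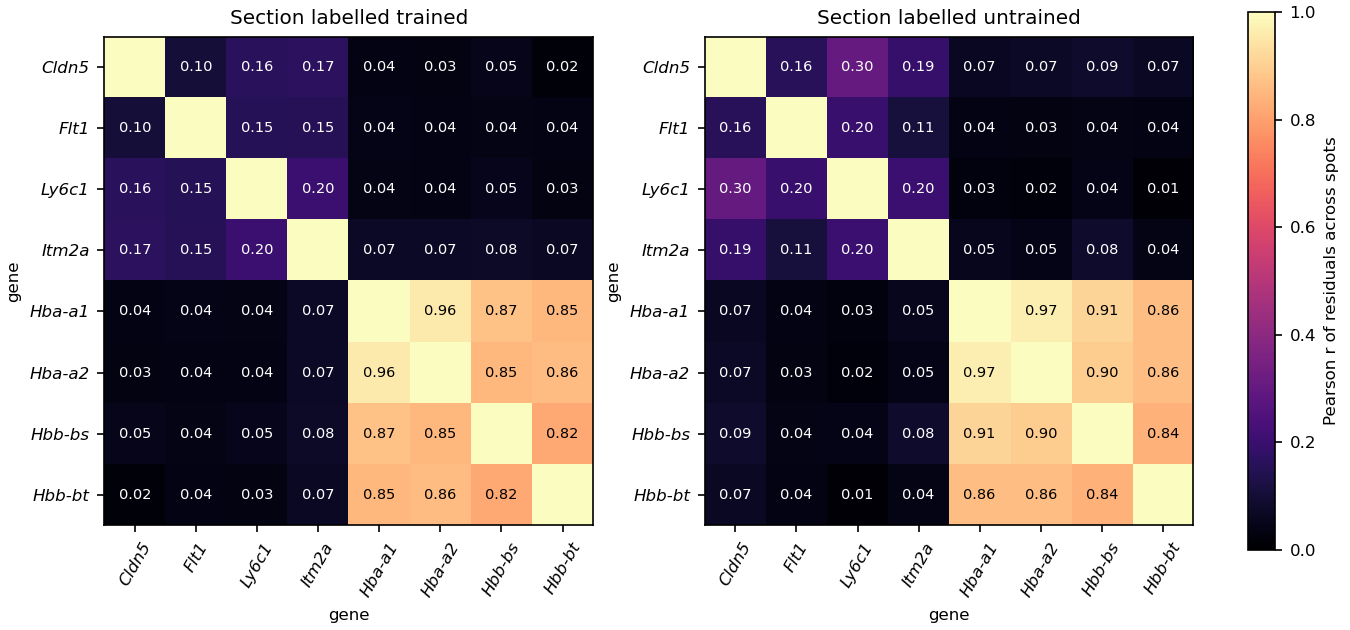
Pearson r across spots of residuals, which set each count against the total of its spot, for each pair of the 8 genes, in the sections labelled trained (3958 spots) and untrained (3624 spots). The 4 globin genes form a block at 0.82 or higher, the endothelial pairs lie between 0.10 and 0.30, and the globin with endothelial pairs lie below 0.09.

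In thinned counts the relation was weak too, and most of its differences were within counting error. At 1000 UMIs per spot, haemoglobin was found in 47.9% of 3198 spots without an endothelial UMI, 50.3% of 598 spots with 1 and 54.2% of 118 spots with at least 2 in the section labelled trained (46.2 to 49.7, 46.3 to 54.4 and 44.8 to 63.4). The section labelled untrained gave 43.4% of 2930 spots (41.6 to 45.2), 47.7% of 564 spots (43.5 to 51.9) and 47.1% of 102 spots (37.1 to 57.2). Conversely, endothelial RNA was found in 17.4% of spots without haemoglobin and 25.9% of spots with at least 10 haemoglobin UMIs under the trained label, with intervals apart, but in 17.4% and 19.8% under the untrained label, with overlapping intervals. Spots with 2 to 4 haemoglobin UMIs had 21.3% under each label, and spots with 5 to 9 had 22.3% and 26.1%. Within single regions of at least 50 spots the r was above 0 in 15 of 16 regions labelled trained (median 0.13, from -0.034 to 0.29) and in 17 of 19 labelled untrained (median 0.060, from -0.096 to 0.46). In the meninges, where both kinds of RNA were high, it was 0.050 and 0.073. Pooled over each region, which removes much of the counting noise of single spots, the r of log2 CPM was 0.58 and 0.55 over 17 regions (rho 0.65 and 0.45), and 0.52 and 0.44 without the meninges (rho 0.61 and 0.36).

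Several cell type lists, vascular and not, stood higher in the spots richest in blood than in the lower 50% of spots. In the highest 1% of spots by haemoglobin CPM the endothelial members stood at 291 CPM (222 to 376) against 174 CPM (168 to 180) in the lower 50% of spots of the section labelled trained, and at 246 (206 to 293) against 169 CPM (164 to 173) in the other. Genes of pericytes, the contractile cells wrapped around capillaries, stood at 281 CPM (213 to 365) against 161 CPM (155 to 167), and at 304 (259 to 355) against 171 CPM (167 to 176). Genes of smooth muscle, which sheathes arteries and larger veins, stood at 88.9 CPM (52.7 to 140) against 76.6 CPM (72.5 to 81.0), and at 104 (78.1 to 136) against 99.04 CPM (95.6 to 103), with overlapping intervals in both sections. In the next 9% of spots, however, smooth muscle genes stood at 149.8 CPM (134 to 166) and 156 CPM (145 to 168), above the lower 50% in both sections. Blood-brain barrier genes, from transporters to junctions, stood at 1111 CPM (971 to 1266) against 1032 CPM (1016 to 1047), and at 1442 (1340 to 1549) against 1432 CPM (1419 to 1445), and the intervals of arterial and of venous genes overlapped as well. Of the barrier list, Bsg alone gave 488 of 1089 CPM in the whole section labelled trained and 811 of 1529 CPM in the other. In the next 9% of spots barrier genes too stood above the lower 50%, at 1272 CPM (1227 to 1319) and 1779 CPM (1741 to 1817), and in the section labelled untrained arterial genes (95.9 against 77.2 CPM) and venous genes (95.7 against 77.3 CPM) did so with intervals apart. Genes of astrocytes, whose endfeet ensheathe vessels, stood at 2000 against 1517 CPM and at 2085 against 1583 CPM. Fibroblast genes stood at 474 against 371 CPM and at 733 against 613 CPM, and microglial and macrophage genes at 518 against 291 CPM and at 335 against 290 CPM, the last with overlapping intervals. Neuronal genes were lower in the blood-rich spots, at 4177 against 5399 CPM and 3995 against 4454 CPM. Globin UMIs enter the total by which CPM is scaled, and haemoglobin made up 80906 and 40878 CPM of the blood-rich spots.

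Other RNAs of the red cell were searched for in the same spots, and the whole list of them stood at 439 against 195 CPM and at 425 against 203 CPM. Alas2, the first enzyme of haem synthesis in red cell precursors, stood at 128 CPM (83.9 to 188; 26 UMIs) in the highest 1% of spots against 0.182 CPM (3 UMIs) in the lower 50% of the section labelled trained. In the section labelled untrained it stood at 108 CPM (81.4 to 140; 56 UMIs) against 0.588 CPM (19 UMIs). Of its 76 and 147 UMIs in all, 26 and 56 thus fell in 39 and 36 spots. Bpgm, which makes the 2,3-bisphosphoglycerate that lowers the oxygen affinity of haemoglobin, stood at 148 against 81.0 CPM and 123 against 79.0 CPM. The genes Fech and Tmcc2 of the list did not stand higher in both sections: Fech was at 79.0 against 51.0 CPM and 32.7 against 41.8 CPM, and Tmcc2 at 59.3 against 61.4 CPM and 135 against 79.8 CPM. The membrane protein gene Slc4a1 (3 and 2 UMIs) was close to absent in whole sections, and the embryonic globin genes Hba-x, Hbb-y, Hbb-bh1 and Hbb-bh2 had 0 UMIs, which allows up to 3 UMIs each. White blood cell and platelet genes stood at 59.3 CPM against 11.7 CPM in the section labelled trained, from 12 UMIs of which 7 were of Itga2b and 5 of Pf4, and at 17.3 (7.92 to 32.9) against 11.7 CPM (10.5 to 12.9) in the other, with overlapping intervals. Itga2b and Pf4 are genes of platelets, and Pf4 also stands on the list of microglial and macrophage genes. S100a8 and S100a9, defining genes of neutrophils, had 0 UMIs in the highest 1% of spots of both sections, which again allows up to 3 UMIs each.

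Vessel genes led those whose spatial pattern was most like that of the endothelial sum. Of 8404 genes ranked by the smaller r of the sections, the first was Ly6a, a Ly6 gene of endothelium (0.29 and 0.38), followed by Rgs5 of pericytes (0.24 and 0.28), Igfbp7 (0.22 and 0.23), Fn1, which encodes fibronectin (0.22 and 0.27), and Slc2a1, the glucose transporter of the barrier (0.21 and 0.23). Apoe, Vtn, Ptgds, Crip1 and Myl9 completed the first 10, with 0.19 to 0.21 in the section labelled trained. The 99th percentile of all ranked genes was 0.099 and 0.149. No ranked gene outside the 8 members reached such values with the haemoglobin sum. Alas2 (76 and 147 UMIs) was not ranked, since genes needed at least 400 UMIs in each section. The first ranked gene was mt-Nd5 (0.089 and 0.090), and mt-Nd2, mt-Co2, Apoe, mt-Nd4, Selenop, mt-Co1, Rps29 and mt-Atp6 were among those that followed, against a 99th percentile of 0.041 and 0.055. With lists of genes, the endothelial sum correlated with 26 other endothelial genes at 0.40 and 0.53 and with pericyte genes at 0.30 and 0.37. Haemoglobin correlated with the same endothelial list at 0.10 and 0.096, with pericyte genes at 0.081 and 0.12 and with smooth muscle genes at 0.014 and 0.018. Its r with the list of other red cell genes, 0.14 and 0.15, was the highest of all lists outside the members.

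The other vascular genes were compared between the labels by the same log2 ratio of whole sections, beside a median of 0.07 over all genes and shares of 43.7% and 27.5% of all genes with an interval above and below 0. Of 26 other endothelial identity genes, 18 had enough UMIs, with a median of -0.13: the ratio was positive for 4, of which 2 had an interval clear of 0, and negative for 14, of which 8 had. Vwf, which carries platelets to injured vessel walls (0.42), and Ly6a (0.40) were highest, and the sialomucin gene Emcn (-0.63) and Nos3, the nitric oxide synthase of endothelium (-0.55), were lowest. Barrier transporters and junction genes had 6 of 19 above 0 and 13 below, with a median of -0.11. Among them the junction scaffold Tjp1 stood at 0.54 and the efflux pump Abcb1a at 0.52, whereas Bsg stood at -0.73 and the phospholipid transfer protein gene Pltp at -1.45, past 2-fold. The RNA ratios of Cldn5 and Tjp1 thus had opposite signs.

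VEGF and angiopoietin genes, the pathway in which Flt1 acts, had 7 of 12 measured, 1 above 0 and 6 below, with a median of -0.20. Of the genes for ligands of Flt1, Vegfa stood at 0.50, Pgf at -0.07 and Vegfb at -0.20, while the receptors Kdr and Tie1 both stood at -0.52. Arterial genes had 4 of 6 above 0, with Efnb2 (0.70) and Hey1 (0.24) highest and Gja4 (-0.65) and Alpl (-1.15, past 2-fold) lowest, and venous genes had 1 of 3 above 0, Nr2f2 (0.27), beside Ackr1 (-0.37) and Vcam1 (-0.35). Pericyte genes were split evenly, 4 of 8 above 0, from Vtn (-0.87) and Pdgfrb (-0.36) to Atp13a5 (0.18) and Rgs5 (0.51). Smooth muscle genes had 2 of 6 above 0, with Tagln (0.24) and Tpm2 (0.07) highest and Acta2 (-0.60) and Myl9 (-0.53) lowest. Fibroblast genes, which mark meninges and vessel sheaths, were below 0 for 9 of 9 with 9 intervals below 0, from Igf2 (-1.98) and Igfbp2 (-1.63) to Ogn (-0.62) and Apod (-0.32). Choroid plexus spots (16 against 64) and ependyma spots (32 against 75) were also fewer in the section labelled trained, and outside the meninges Igf2 stood at 18.8 against 84.8 CPM and Igfbp2 at 53.1 against 176 CPM. The part of these spots in the ratios and that of fibroblast RNA in the vascular values of whole sections was not tested.

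Few other blood genes could be measured. Of the red cell list, Fech, the last enzyme of haem synthesis (0.23), Bpgm (0.04) and Tmcc2 (-0.36) had at least 400 UMIs, and none was as high as Hbb-bs. Genes of haemoglobin and iron clearance had 0 of 5 above 0, from Ftl1 (-0.40) and Blvrb (-0.20) to Blvra (-0.06) and Fth1 (-0.04). The neuroglobin gene Ngb (18.3 and 18.5 CPM) and the cytoglobin gene Cygb (55.7 and 58.0 CPM) were near equal in the sections, with log2 ratios of -0.02 and -0.06. Itga2b, a platelet integrin and the 1 measured gene of the white cell and platelet list, stood at 0.11. Of the lists for other cells, astrocyte genes had a median of -0.06, from Agt (-0.56) and Aldh1l1 (-0.41) to Gja1 (0.74) and Slc1a3 (0.76). Microglial and macrophage genes had a median of -0.04, from Cx3cr1 (-0.36) and Csf1r (-0.32) to C1qa (0.36) and P2ry12 (0.38), and neuronal genes one of 0.23, with Syp (-0.10) among the lowest and Nefl and Snap25 (both 0.56) highest.

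Depth moved with both sets of genes. Haemoglobin stood at 3399, 2332 and 1485 CPM in the shallow, middle and deep group of spots labelled trained, and at 1677, 1652 and 1003 CPM in the other section. The endothelial genes stood at 281, 223 and 166 CPM, and at 267, 213 and 155 CPM. These groups were cut within each section and are unlike in depth: the deep group labelled trained (median 11596 UMIs) is nearer to the middle group labelled untrained (14117.5 UMIs) than to the deep one (24569.5 UMIs), and there haemoglobin stood at 1485 against 1652 CPM. The middle group labelled trained (6206 UMIs) is near in depth to the shallow group labelled untrained (6899.5 UMIs). For that pair haemoglobin stood the other way, at 2332 against 1677 CPM. The left part of the array was higher than the right for haemoglobin in both sections, 2199 against 1816 CPM and 1423 against 1176 CPM. The part of depth and of position in these levels was not tested.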

How the data were processed

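Filtered matrices of 2 sections held raw UMI counts per gene and spot, which the authors had deposited after trimming with TrimGalore and counting with Space Ranger 2.0.0 on mm10. Their spatial tables held Moran's I, a deposited score, and p-values that were not used. Counts were pooled over spots and scaled to the total (CPM), with exact Poisson intervals, exact (Clopper-Pearson) binomial intervals for shares and exact conditional binomial intervals for log2 ratios (pseudocount 0.5 UMI, genes with at least 400 UMIs over both sections). No test was possible with 1 section per label. Spots were clustered jointly (3000 variable genes per section, 30 principal components, 15 neighbours, Leiden resolution 1.5, seed 7) with scanpy 1.11.5 and leidenalg 0.10.2, without doublet calling since spots are not cells. Correlations used analytic Pearson residuals (theta 100) of spots with at least 500 UMIs, computed with NumPy 2.4.6 and SciPy 1.17.1, and scripts were tested on simulated data. Genes were placed with the GENCODE annotation of GRCm38, and promoters came from RefSeq.

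The 8 genes and the gene lists were chosen with earlier results of these data known. Named were the 8 genes, the 2 genes with the highest and the 2 with the lowest ratio in each list, and the 10 genes most like each sum; genes named in blood-rich spots and as leading genes of clusters, and Vegfb, were chosen after their values were seen. Other scalings, thinning, weights, clusterings and parts of the array were tried as alternatives. A few genes that the rule names are not reported here.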

Additional observations from a re-analysis of the deposited data

How the results depend on the processing

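Of the results compared under other settings, the haemoglobin ratio (0.62) stayed above 0 under all 12 alternatives, the Cldn5 ratio ran from -0.76 to -0.58 and the Hbb-bs ratio from 0.43 to 0.87. Alternatives that left out the highest spots by haemoglobin, cluster 14 or spots under 500 UMIs were chosen after seeing the data. The haemoglobin ratio was 0.55 when scaled to UMIs without mitochondrially encoded and haemoglobin genes, 0.54 with median-ratio scaling, 0.68 with each spot weighted equally and also after thinning, 0.22 without the highest 10% of spots and 0.58 without cluster 14. The endothelial ratio (0.07) was 0.0096 without mitochondrially encoded and haemoglobin genes, -0.00074 (reversed) with median-ratio scaling, 0.019 after thinning, 0.15 in the left part of the array and 0.024 in the right. Members higher in the section labelled trained numbered 5 of 8, 3 with median-ratio scaling and 7 in the left part of the array. Hba-a1 (0.05) reversed to -0.018 without mitochondrially encoded and haemoglobin genes, -0.028 with median-ratio scaling, -0.029 in the right part of the array, -0.42 without the highest 10% of spots and -0.0023 without cluster 14. Over the 12 alternatives it ran up to 0.25 and was above 0 in 7. Hba-a2 (-0.05) ran from -0.49 to 0.09 and was above 0 in 3. The correlation of haemoglobin with endothelial RNA was 0.045 and 0.039 as Spearman's rho after thinning, 0.15 and 0.20 on sums over each spot and its neighbours, and 0.070 in the section labelled untrained when centred within clusters. Over all other spots, meningeal haemoglobin in the section labelled trained (0.85) was 0.997 and 0.74 at clustering resolutions 1 and 2, 0.78 with equal weights and 1.23 without the highest 1% of spots, and in the section labelled untrained (0.92) it was 1.04, 0.99, 1.04 and 1.13. The meningeal endothelial ratio in the section labelled untrained (1.61) was 1.49 at resolution 1 and 1.45 with equal weights. The correlation of regional haemoglobin levels between sections was 0.85 without the highest 10% of spots. The cause of these shifts was not tested.

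No paired analysis was possible because each label has 1 section, so that fewer than 2 replicate numbers are shared. For the same reason no replicate was left out. Depth limits single spots: the richest spots held 27 and 30 endothelial UMIs, and Alas2 rests on 76 and 147 UMIs in all.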
